A study of Mus musculus with 7 samples.

Results

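The heat shock proteins and their J-domain cochaperones were read in mouse sperm RNA by 76 probe sets for 68 genes. They were taken by symbol from the 23493 probe sets that carry exactly 1 gene symbol, which cover 22154 symbols: every symbol that starts with Hspa, Hspb, Hsph, Hspd, Hspe, Hsp90, Dnaja, Dnajb or Dnajc. Another 15 probe sets name a family gene together with a second gene and were left out. Among them were those of Dnaja1 and of Dnajb8, which also has known testis expression. Known expression in testis or male germ cells set apart 9 genes with 10 probe sets as testis forms: Hspa1l, Hspa2, Hspa4l, Hspb9, Dnajb3, Dnajb7, Dnajb13, Dnajc5b and Dnajc5g. The other 59 genes, with 66 probe sets, are called somatic forms here.

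Each of the 7 arrays held sperm RNA pooled from several males. The control array came from 5 males of strain C57BL/6. The 3 TG3 arrays and the 3 nonTG3 arrays each came from 4 males of a KDM1A transgenic line in generation 3: TG3 males carried the transgene, which had been injected into C57BL/6 zygotes and was handed down through heterozygous fathers mated with C57BL/6 females, and nonTG3 males were brothers that did not inherit it. TG3 and nonTG3 are together called the line. A difference between the line and the control cannot be told apart from a peculiarity of this 1 pool or array, because C57BL/6 has 1 array. The ages of the males, the promoter of the transgene, scan batches and whether a male entered more than 1 pool are not stated in the labels used here, and the p-values reflect how far these pools differ from each other.

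Hsp70 proteins hold and release unfolded stretches of other proteins in a cycle driven by ATP, and J-domain proteins bring them their substrates and start the hydrolysis. Hsp90 proteins act later on selected client proteins, the mitochondrial chaperonin encloses small proteins while they fold, and small heat shock proteins bind unfolded proteins without ATP. Male germ cells use their own forms: HSPA2 is needed for meiosis in males and HSPA1L is made in spermatids. Mature sperm transcribe little or nothing, so their RNA is largely what remains from earlier stages or comes from the epididymis.

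Values are log2 RMA intensities, and a difference of 1 is a doubling or halving. The array medians lay between 3.52 and 3.61. The mean over the line was below the lowest of these medians for 10 of the 76 probe sets, and 6 of them were below it on all 7 arrays. No fold is given for these. RNA of the sperm markers Prm1, Odf1 and Smcp was high on all 7 arrays, with Prm1 at 11.64 in C57BL/6 and 10.19 on average in the line. In pooled samples, fewer cells of a type and less RNA per cell cannot be told apart.

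The promoters of the called testis forms are shown first, since 6 of the 9 called probe sets are theirs. RefSeq start sites of build GRCm38.p6 matched 56 of the 68 genes, with 71 promoters. Each line gives the 120 bases upstream of the start, 5′ to 3′ on the gene's strand, in lower case because none of the 3 motifs searched for occurs in them; Dnajc5b has no entry.
Hspa1l (chr17:34972583-34972702, strand +): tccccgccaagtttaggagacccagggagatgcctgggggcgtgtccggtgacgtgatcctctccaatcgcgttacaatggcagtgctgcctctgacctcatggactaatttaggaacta
Hspa2 (chr12:76404250-76404369, strand +): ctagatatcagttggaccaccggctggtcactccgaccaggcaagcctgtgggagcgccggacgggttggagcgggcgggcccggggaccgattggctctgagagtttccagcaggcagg
Dnajb7 (chr15:81408274-81408393, strand -): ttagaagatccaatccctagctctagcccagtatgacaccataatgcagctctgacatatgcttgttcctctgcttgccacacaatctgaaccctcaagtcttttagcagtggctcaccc
Dnajb13 (chr7:100514816-100514935, strand -): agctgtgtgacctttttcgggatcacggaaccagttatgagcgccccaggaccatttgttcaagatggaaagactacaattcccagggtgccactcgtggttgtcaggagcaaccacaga
Dnajc5g (chr5:31108199-31108318, strand +): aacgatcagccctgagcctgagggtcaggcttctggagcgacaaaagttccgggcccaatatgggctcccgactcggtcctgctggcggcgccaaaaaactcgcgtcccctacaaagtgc
The motifs, searched on both strands of windows from 250 bases upstream to 50 bases downstream, were a heat shock element, a cAMP response element TGACGTCA and the endoplasmic reticulum stress element. Of the 8 testis-form promoters matched, 0 held any of these motifs in that window, which says only that these letters are not there. Hspa1l and the stress-inducible Hspa1a lie on opposite strands with start sites 547 bases apart.

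The comparison of the line with C57BL/6 asks how sperm RNA of the transgenic family differs from that of the founder strain. Among the 76 probe sets, chaperone RNAs differed mainly in the testis forms, though not in all of them. Hspa1l, Hspa2, Dnajb7, Dnajb13, Dnajc5b and Dnajc5g fell, and so did 3 J-domain genes without a testis label, Dnajc15, Dnajc2 and Dnajc27. limma called 9 of 76 probe sets at an adjusted p under 0.05, all 9 lower in the line. Over all probe sets tested, 3.02% were called, 2.85% lower and 0.17% higher. The median log2 difference was -1.49 for the testis forms, of which 6 of 10 were called, -0.02 for the somatic forms, of which 3 of 66 were called, and 0.04 over all probe sets tested. The C57BL/6 array read above all 6 arrays of the line for 9 of the 10 testis probe sets and 15 of the 66 somatic ones, against 14.3% of all probe sets. It read below all 6 for 5 somatic and 0 testis probe sets, against 18.2% of all. Dnajb8, a further testis gene, is not in these counts because its probe sets also name a second gene. Its probe set 17460643 read 7.79 in C57BL/6 and 7.55 to 8.21 in the line, a log2 difference of -0.04. Its probe set 17468715 read 7.47 and 7.01 to 7.79, a difference of -0.11.

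**Figure D1:**
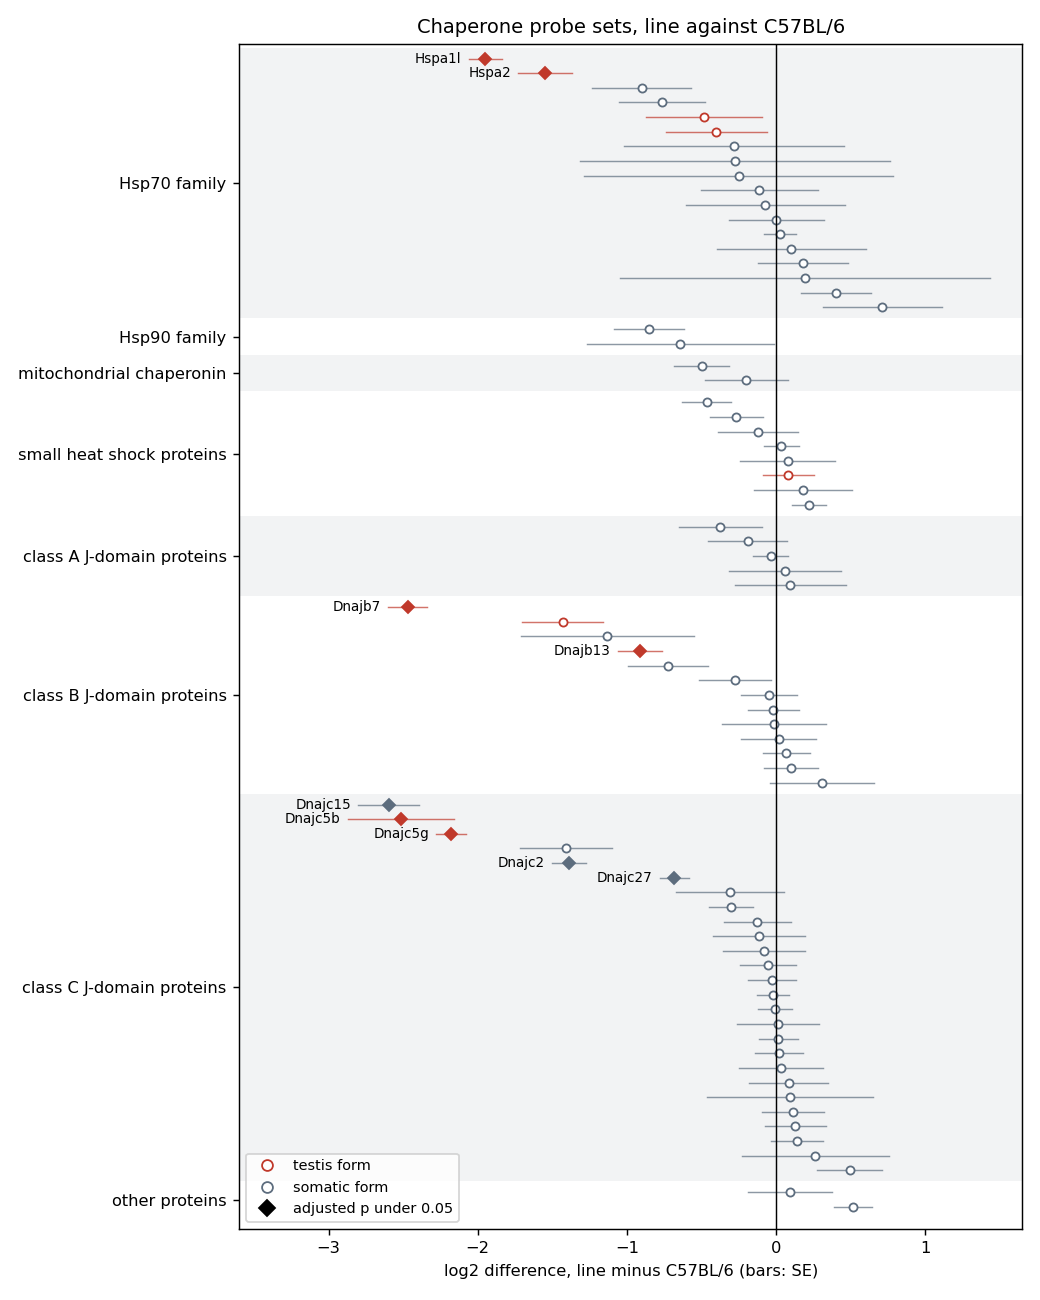
Log2 difference of the line from C57BL/6 for each of the 76 chaperone probe sets, grouped by role and sorted within a role. Bars are the SE of the fit, red marks testis forms, and filled diamonds are the 9 probe sets with an adjusted p under 0.05, all left of 0 between -2.60 and -0.68.

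Among the Hsp70 genes, 2 of 18 probe sets were called. Hspa1l read 7.43 in C57BL/6, 5.55, 5.53 and 5.43 in TG3, and 5.49, 5.36 and 5.53 in nonTG3. The 6 arrays of the line lay within 0.19 of each other and all below C57BL/6. The fall was 3.86-fold, with a log2 difference of -1.95 ± 0.11 (SE) and an adjusted p of 0.002 by limma. A second probe set named Hspa1l did not show it: it read 4.83 in C57BL/6 and from 3.88 to 4.68 in the line, a difference of -0.48 ± 0.39 (SE) with an adjusted p of 0.876 by limma. Which parts of the gene the probe sets cover is not stated in the labels used here.

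Hspa2, the Hsp70 of meiotic germ cells, read 6.86 in C57BL/6, 5.28, 5.39 and 5.48 in TG3, and 5.34, 4.98 and 5.38 in nonTG3. It was 2.93-fold lower in the line, a log2 difference of -1.55 ± 0.18 (SE) with an adjusted p of 0.014 by limma. Hspa4l, a germ cell relative of the Hsp110 exchange factors, stayed near its control value on 5 arrays: 8.20 in C57BL/6, 7.94, 7.94 and 7.09 in TG3, and 7.82, 7.94 and 8.07 in nonTG3. Its difference of -0.40 ± 0.34 (SE) had an adjusted p of 0.896 by limma. Hspa4, its somatic relative, read 5.89 in C57BL/6 and from 4.60 to 5.34 in the line, -0.90 ± 0.33 (SE), with an adjusted p of 0.347 by limma. Of the other somatic Hsp70 genes, none passed the test.

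The class B J-domain genes had 2 of 13 probe sets called. Dnajb7, a J-domain gene of the testis, read 5.88 in C57BL/6, 3.43, 3.34 and 3.34 in TG3, and 3.51, 3.29 and 3.54 in nonTG3. The readings of the line were at the level of the array medians, so the size of the fall is not given and its place in the plot of differences by role is no measured size; the adjusted p was 0.002 by limma. Dnajb13, a part of the radial spokes of the sperm tail, read 5.73 in C57BL/6, 4.60, 4.88 and 4.71 in TG3, and 4.79, 4.88 and 5.03 in nonTG3. It was 1.88-fold lower, -0.91 ± 0.15 (SE), with an adjusted p of 0.040 by limma. Dnajb3, a spermatid J-domain gene, read 8.11 in C57BL/6, 6.43, 7.19 and 6.65 in TG3, and 6.64, 6.52 and 6.68 in nonTG3. All 6 line arrays were below C57BL/6, but its difference of -1.43 ± 0.27 (SE) missed the threshold with an adjusted p of 0.065 by limma. It passed without TG3 replicate 2 (adjusted p 0.026) and with a filter on dim probe sets (adjusted p 0.048). Somatic class B genes included Dnajb1, the main partner of stress-inducible Hsp70, at 5.43 in C57BL/6 and 4.24 to 5.11 in the line (adjusted p 0.355 by limma). Dnajb2, a cochaperone that also binds ubiquitin, read 7.86 in C57BL/6 and 7.77 to 8.64 in the line, so the groups overlapped. Dnajb14, anchored in the endoplasmic reticulum membrane, read 6.41 in C57BL/6 and 6.10 to 6.79 in the line and overlapped likewise.

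**Figure D2:**
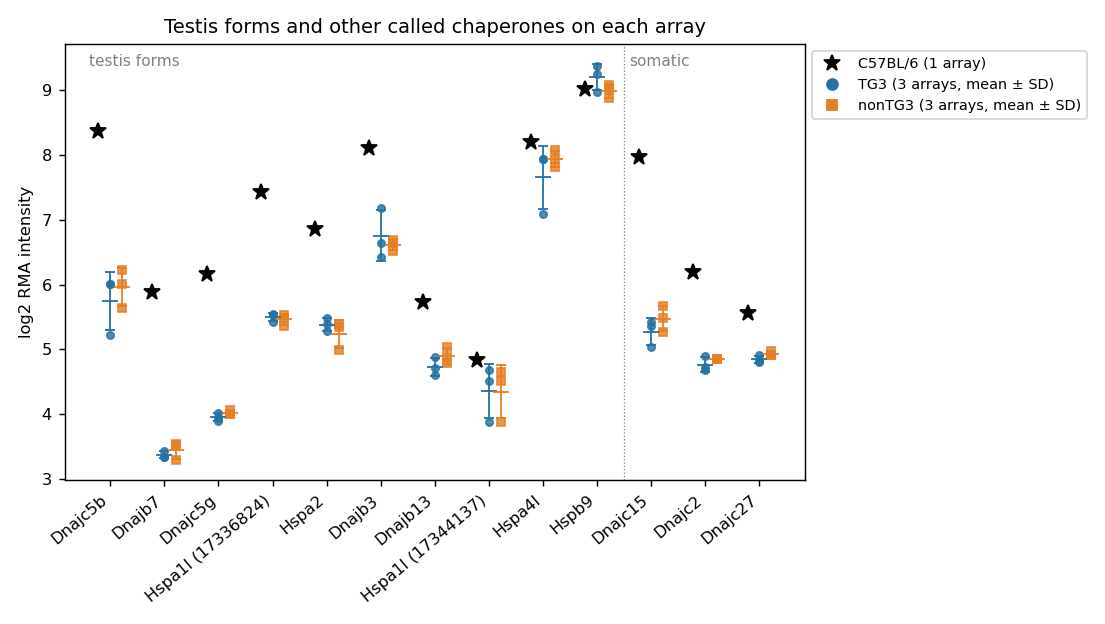
Log2 RMA intensity on each array for the 10 testis-form probe sets, left of the dotted line, and the 3 called somatic ones, right of it; bars are the mean ± SD of 3 arrays. The C57BL/6 star stands above all 6 line arrays for every probe set shown except Hspb9, and TG3 and nonTG3 overlap throughout.

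The class C J-domain genes held 5 of the 9 calls, in 26 probe sets. The cysteine string proteins are chaperones of secretory vesicles, and both testis forms fell. Dnajc5b read 8.36 in C57BL/6, 6.00, 6.00 and 5.23 in TG3, and 5.64, 6.00 and 6.22 in nonTG3, 5.71-fold lower with a log2 difference of -2.51 ± 0.36 (SE) and an adjusted p of 0.025 by limma. Dnajc5g read 6.16 in C57BL/6, 3.89, 4.02 and 3.94 in TG3, and 4.00, 4.06 and 3.99 in nonTG3. It was 4.52-fold lower, -2.18 ± 0.10 (SE), with an adjusted p of 0.002 by limma. Dnajc5, the form of nerve terminals, read 4.94 in C57BL/6 and 4.71 to 5.23 in the line, which spans the control value.

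Dnajc15, a J-domain protein of the inner mitochondrial membrane, had the largest difference of the 76 probe sets. It read 7.97 in C57BL/6, 5.42, 5.37 and 5.04 in TG3, and 5.48, 5.27 and 5.67 in nonTG3, 6.05-fold lower with a log2 difference of -2.60 ± 0.20 (SE) and an adjusted p of 0.005 by limma. Dnajc2, which works on the ribosome with the Hsp70 protein HSPA14, read 6.20 in C57BL/6, 4.67, 4.89 and 4.73 in TG3, and 4.85 on all 3 nonTG3 arrays, 2.62-fold lower (adjusted p 0.005 by limma). Its partner Hspa14 read 4.00 on 6 of the 7 arrays and 4.17 on the remaining one. Dnajc27, a Rab-like GTPase with a J domain, read 5.57 in C57BL/6, 4.82, 4.91 and 4.81 in TG3, and 4.97, 4.91 and 4.91 in nonTG3, 1.60-fold lower (adjusted p 0.027 by limma). Dnajc18 had a log2 difference of -1.41 ± 0.31 (SE) but an adjusted p of 0.099 by limma. Dnajc2, Dnajc27 and Dnajc5b had 4 or fewer distinct values on the 6 line arrays, as did 30.9% of all probe sets tested, and tied values add nothing to the spread that the test uses.

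Dnajc27 was the only one of the 56 matched genes with the cAMP response element TGACGTCA in its window, in capitals in the sequence shown for that reason. The letters occur in 1 of the 71 matched promoters and in 1.79% of all 32851 promoters of the same length.
Dnajc27 (chr12:4082454-4082573, strand +): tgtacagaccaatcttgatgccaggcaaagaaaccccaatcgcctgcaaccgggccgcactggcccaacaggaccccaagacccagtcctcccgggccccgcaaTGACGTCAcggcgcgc

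The remaining roles had 0 calls by limma. Hsp90aa1, the inducible cytosolic Hsp90, read 6.87 in C57BL/6 and 5.67 to 6.28 in the line, -0.85 ± 0.23 (SE), with an adjusted p of 0.183. For the mitochondrial chaperonin, Hspe1 read 4.82 in C57BL/6 and 4.12 to 4.61 in the line, and Hspd1 read 4.45 and 3.89 to 4.57. In the small heat shock proteins, 3 of 8 probe sets had a difference below 0. Hspb9, the testis form among them, read 9.01 in C57BL/6, 8.98, 9.38 and 9.26 in TG3, and 9.01, 8.87 and 9.09 in nonTG3. Of the 10 testis-form probe sets, only that of Hspb9 had line arrays that overlapped the control. The Dnajb8 probe sets that were left out overlapped it as well. Hspb1 and Hspb6, small heat shock proteins of muscle and other tissues, read 4.36 and 4.81 in C57BL/6, with 3.93 to 5.02 and 4.20 to 4.63 in the line. Class A J-domain genes (5 probe sets of Dnaja2, Dnaja3 and Dnaja4) had differences between -0.37 and 0.10. Dnaja2, a general partner of Hspa8, read 6.44 in C57BL/6 and 5.62 to 6.41 in the line, Dnaja4 read 5.42 and 4.77 to 5.54, and the brightest probe set of the mitochondrial Dnaja3 read 4.41 and 3.75 to 4.84. Hspbp1, a nucleotide exchange factor of Hsp70, read 5.14 in C57BL/6 and 5.61 to 5.83 in the line, with an adjusted p of 0.137 by limma, and Hspbap1, which binds a small heat shock protein, read 3.14 and 2.90 to 3.69. The 8 genes whose proteins sit in mitochondria had 1 call in 10 probe sets, Dnajc15, and the 8 genes of the endoplasmic reticulum had 0 calls.

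Hspd1 and Hspe1 encode partner subunits and start on opposite strands, with start sites 95 and 216 bases apart for the annotated Hspd1 starts. The heat shock element was searched as 1 pattern of 13 bases with no mismatch allowed, and looser matches were not looked for. It stood in 6 of the 71 matched promoters, those of 4 genes (Dnajb6, Hspd1, Hspe1 and Hsph1), against 0.603% of all promoters. These promoters overlap: the matches of Hspd1 and Hspe1 are the same bases. The windows of Dnajb6 share a single match, and so do those of Hsph1. Both figures count promoters and not separate sites, so they cannot be read as an enrichment. The stretches of Hspe1 and Dnajb6 are shown with the match in capitals, and in Hspe1 overlapping matches on both strands run together. Neither gene was called.
Hspe1 (chr1:55088028-55088147, strand +): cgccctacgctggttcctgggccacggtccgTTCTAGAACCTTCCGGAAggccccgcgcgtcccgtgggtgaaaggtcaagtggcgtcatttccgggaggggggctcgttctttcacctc
Dnajb6 (chr5:29735778-29735897, strand +): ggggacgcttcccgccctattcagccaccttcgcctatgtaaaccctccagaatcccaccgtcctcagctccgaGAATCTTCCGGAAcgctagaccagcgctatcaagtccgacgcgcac

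Each part of the line was also set against C57BL/6. These comparisons share the C57BL/6 array and are given side by side. TG3 against C57BL/6 called 9 of 76 probe sets, all lower, where 2.53% of all were called, 2.41% lower and 0.119% higher. nonTG3 against C57BL/6 called 8 of 76, all lower, where 2.53% of all were called, 2.43% lower and 0.0936% higher. Hspa1l differed by -1.93 in TG3 and -1.97 in nonTG3 and Dnajc15 by -2.70 and -2.50. Fitted on only the groups compared, limma called 0 in TG3 (smallest adjusted p 0.083) and 2 in nonTG3, Dnajc5g and Dnajc2. In the fit on all 7 arrays Dnajb13 was called in TG3 alone, at -0.99 with an adjusted p of 0.042 by limma, against -0.83 and 0.074 in nonTG3. Its difference between TG3 and nonTG3 was -0.17, with a 95% interval from -0.45 to 0.11.

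How firm the calls were differed by gene. When any 1 of the 6 line arrays was left out, 6 to 8 of the 76 probe sets were called, and 350 to 496 of all 23493; Hspa1l, Dnajb7, Dnajc5g, Dnajc15 and Dnajc2 stayed called each time, Hspa2 was lost without TG3 replicate 2 (adjusted p 0.055 by limma), Dnajc5b was lost in 5 of the 6 and Dnajb13 and Dnajc27 in all 6. These counts include Dnajb3, called without TG3 replicate 2, and Dnajc18, called without TG3 replicate 3. TG3 replicate 1 and nonTG3 replicate 3 had the lowest mean reading over 10 mitochondrially encoded genes, 8.80 and 8.91, against 9.98 to 11.55 on the other line arrays and 11.24 in C57BL/6; without both, a setting chosen after seeing the data that leaves 2 residual degrees of freedom, limma called 0 members and 0 of all probe sets, 16 members had an unadjusted p under 0.05, and Hspa1l differed by -1.98 and Dnajc15 by -2.68.

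Several markers of germ cells and of Leydig cells were lower in the line as well, but not all. Over 12 probe sets of 11 spermatid genes the mean was 9.83 in C57BL/6 and 8.44 to 8.73 in the line, with 5 genes called lower. The median of that list was 9.45 in C57BL/6 and 8.79 to 9.11 in the line. Not called were Akap4 (log2 difference -0.97), Gapdhs (-0.34), Odf1 (-0.04 and 0.12), Smcp (-0.08), Tnp2 (-0.42) and Tssk6 (0.40). Tnp1, a transition protein of spermatids, read 12.40 in C57BL/6 and 9.23 to 9.85 in the line. Over 7 pachytene spermatocyte genes the mean was 5.88 against 3.72 to 4.11, with 5 called lower. Hormad1 (log2 difference -1.89) and Piwil1 (-0.45) were not called. In the line, Sycp1, Sycp2 and Hormad1 averaged 2.55, 3.39 and 3.00, below the array medians. The mean over the Leydig cell list was 4.18 against 2.43 to 2.70, with 4 of 5 genes called lower. These line means lay below the array medians. A second Cyp11a1 probe set, at 3.20 in C57BL/6 and 3.09 to 3.38 in the line, was not called, nor was Hsd3b1. In the Sertoli cell list 1 of 8 genes was called lower, Cst9, at 7.66 against 2.32 to 3.30. The other Sertoli genes were not called, and the list's median was 4.04 in C57BL/6 and 3.95 to 4.12 in the line. In the leukocyte list 0 of 8 genes were called. The list set up for epididymal epithelium had 1 gene lower, Defb19, at 9.18 against 2.84 to 2.95. It had 1 gene higher, Lcn8, at 2.45 against 3.07 to 3.25, all below the lowest array median. The other genes of that list were not called, and which cells the Defb19 RNA came from was not tested. The part of these cells in the chaperone differences was not tested.

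Genes of the chaperone pathway outside the symbol rule were looked up from a list of 60, of which 55 were read by 60 probe sets. limma called 6 lower and 0 higher, where 2.85% of all probe sets were called lower and 0.17% higher. The median log2 difference was -0.16, against 0.04 over all. Hsbp1, which binds the heat shock factor trimer, read 10.50 in C57BL/6 and 7.47 to 7.86 in the line, 6.82-fold lower with an adjusted p of 0.002 by limma. Clgn and Pdilt, germ cell chaperones of the endoplasmic reticulum that sperm need for fertilisation, read 7.75 against 5.23 to 5.71 and 5.72 against 3.80 to 4.27. Tcp1 and Cct4, subunits of the cytosolic chaperonin, read 7.96 against 5.57 to 6.16 and 6.34 against 4.82 to 5.17. Sugt1, a cochaperone of Hsp90, read 4.32 against 3.79 to 3.80. A second Tcp1 probe set read below the array medians and was not called.

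The comparison of carriers with their brothers bears on the transgene itself. No chaperone gene passed the test, testis or somatic. limma called 0 of 76 probe sets and 0% of all 23493, the smallest adjusted p among the 76 was 0.923, and 0 of the 76 had an unadjusted p under 0.05, against 2.38% of all probe sets. For 0 of the 76 did the 3 TG3 arrays lie wholly above or wholly below the 3 nonTG3 arrays, against 2.47% and 1.65% of all.

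The intervals say which sizes of difference these arrays could leave unseen. All 76 of the 95% intervals held 0. Their median half-width was 0.50 log2 units, 0.33 for the testis forms, and 69 of 76 were at most 1. Dnajc5g was measured most closely of the testis forms, at -0.07 with an interval from -0.25 to 0.12, and Hspa1l differed by 0.04, from -0.17 to 0.25. Hspa2 differed by 0.15, from -0.19 to 0.48. The widest was Hspa1b, at 0.47 with an interval from -1.87 to 2.80.

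**Figure D3:**
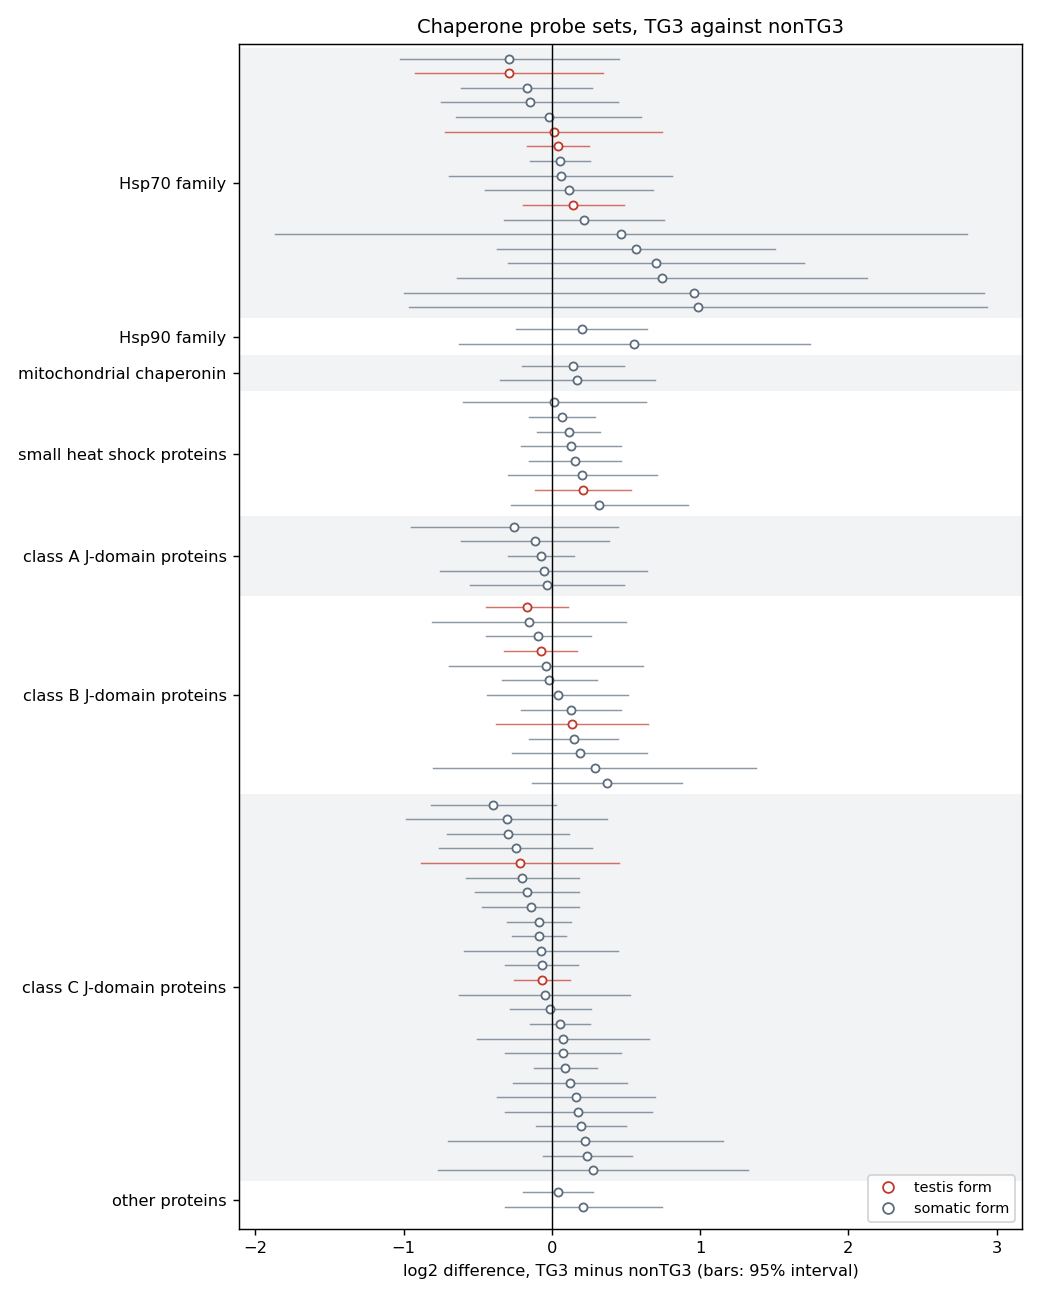
Log2 difference between TG3 and nonTG3 for each of the 76 chaperone probe sets, grouped by role and sorted within a role, with 95% intervals from limma; red marks testis forms. All 76 intervals cross 0, and the widest belong to Hspa1b and to probe sets of Hspa8.

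The 5 members with the smallest p in each direction were picked by p and not by size. Over all 76 probe sets the differences ran from -0.39 to 0.98. Higher in TG3 were Dnajc5 (0.24), Dnajb1 (0.37), a probe set of Hspa8 (0.71), Dnajc14 (0.20) and Hspb9 (0.21). Lower were Dnajc21, a factor of ribosome maturation, at -0.39 with an unadjusted p of 0.063, and Dnajc11 (-0.29), Dnajb13 (-0.17), Dnajc15 (-0.20) and Dnajc7 (-0.24). Dnajc21 read 5.75, 6.18 and 5.61 in TG3 and 6.17, 6.39 and 6.17 in nonTG3, so that one TG3 array lay inside the range of nonTG3. None of these 10 passed the test, each with an adjusted p of 0.923 by limma.

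Within the line, a few somatic chaperones varied far more between pools than the testis forms did. The SD over the 6 line arrays was 1.25 for Hspa1b, 1.15 for 2 probe sets of Hspa8, 0.83 for Hspa5 and 0.69 for Hsp90b1, against a median of 0.26 over the 76 members and 0.21 over all probe sets. Hspa1b, a stress-inducible Hsp70, read 5.20 in C57BL/6, 4.88, 6.15 and 5.84 in TG3, and 7.25, 4.17 and 4.05 in nonTG3. Hspa8, the constitutive Hsp70 of the cytosol, has several probe sets, and those not among the 5 largest SDs varied less. Its probe set 17548379 read 8.44 in C57BL/6, 8.05, 9.05 and 8.94 in TG3, and 9.44, 6.69 and 6.97 in nonTG3. Hspa1b and this Hspa8 probe set were highest in nonTG3 replicate 1 and lowest in the other nonTG3 arrays, so TG3 lay inside the range of nonTG3. Hspa1a and Hspa1b are near copies: their 250 bases upstream of the start differ at 3, RNA of one can bind probes of the other, and their separate values are uncertain. A probe set that names both genes, not among the members, varied less. It read 4.45 in C57BL/6 and 4.62 to 5.55 in the line, with an SD of 0.32.

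The endoplasmic reticulum chaperones had a similar spread. Hspa5 (BiP, the Hsp70 of that compartment) read 6.84 in C57BL/6, 6.43, 7.47 and 6.89 in TG3, and 7.25, 6.08 and 5.23 in nonTG3. Hsp90b1, its Hsp90, read 8.21 in C57BL/6, 7.20, 8.55 and 7.78 in TG3, and 7.99, 7.28 and 6.60 in nonTG3. Dnajc10, a J-domain protein that reduces disulfides, read 6.49 in C57BL/6, 6.39, 7.21 and 6.57 in TG3, and 7.17, 6.48 and 5.70 in nonTG3. Among the 8 genes of the compartment the highest line array was TG3 replicate 2 for 4 and nonTG3 replicate 1 for 4, while these arrays were highest for 14.8% and 11.7% of all probe sets. The lowest was nonTG3 replicate 3 for 4 of the 8, against 16.3% of all. Of the 8, 0 were called between TG3 and nonTG3.

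Of the 71 matched promoters, 3 held the endoplasmic reticulum stress element, those of Hspa5, Hsp90b1 and Dnajc3, against 0.119% of all promoters. They are shown because the proteins of all 3 genes act in that compartment. Capitals mark the match, which in Hsp90b1 lies on the opposite strand, and a second match in Hsp90b1 lies further upstream than the stretch shown.
Hspa5 (chr2:34771970-34772089, strand +): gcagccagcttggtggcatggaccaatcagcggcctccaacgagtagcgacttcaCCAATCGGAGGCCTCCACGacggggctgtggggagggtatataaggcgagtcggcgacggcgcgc
Hsp90b1 (chr10:86705445-86705564, strand -): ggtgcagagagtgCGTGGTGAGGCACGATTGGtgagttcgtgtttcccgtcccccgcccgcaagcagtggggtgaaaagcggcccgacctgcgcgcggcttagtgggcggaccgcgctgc
Dnajc3 (chr14:118937812-118937931, strand +): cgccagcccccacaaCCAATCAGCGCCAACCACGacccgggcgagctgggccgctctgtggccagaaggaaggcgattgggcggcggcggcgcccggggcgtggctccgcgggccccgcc
Dnajc3, which binds BiP, read 6.69 in C57BL/6 and 6.32 to 7.02 in the line with an SD of 0.26, a smaller spread than Hspa5 or Hsp90b1. A match is a description of the letters and no evidence of binding.

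Some other RNA moved along the same arrays. The mean over 10 probe sets of epididymal epithelium genes was 4.86, 5.40 and 5.03 in TG3 and 5.08, 4.72 and 4.49 in nonTG3. Krt8, an epithelial keratin, read 6.72, 7.71 and 6.95 in TG3 and 7.13, 6.13 and 6.21 in nonTG3. Krt18, Epcam and Cdh1 were, like Krt8, highest in TG3 replicate 2. The rest of that list did not follow: Krt19 (5.33) and Lcn5 (3.83) were highest in TG3 replicate 1. Lcn8 stayed within 3.07 to 3.25 and Defb19 within 2.84 to 2.95 on the line arrays, below the array medians. The mean of the mitochondrially encoded genes was 8.80, 11.44 and 11.51 in TG3 and 11.55, 9.98 and 8.91 in nonTG3. For fibroblasts, muscle and vessels it was 5.86, 4.69 and 4.88 in TG3 and 5.05, 4.97 and 5.56 in nonTG3, highest where mitochondrial RNA was lowest. Their part in the spread of the chaperones was not tested.

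**Figure D4:**
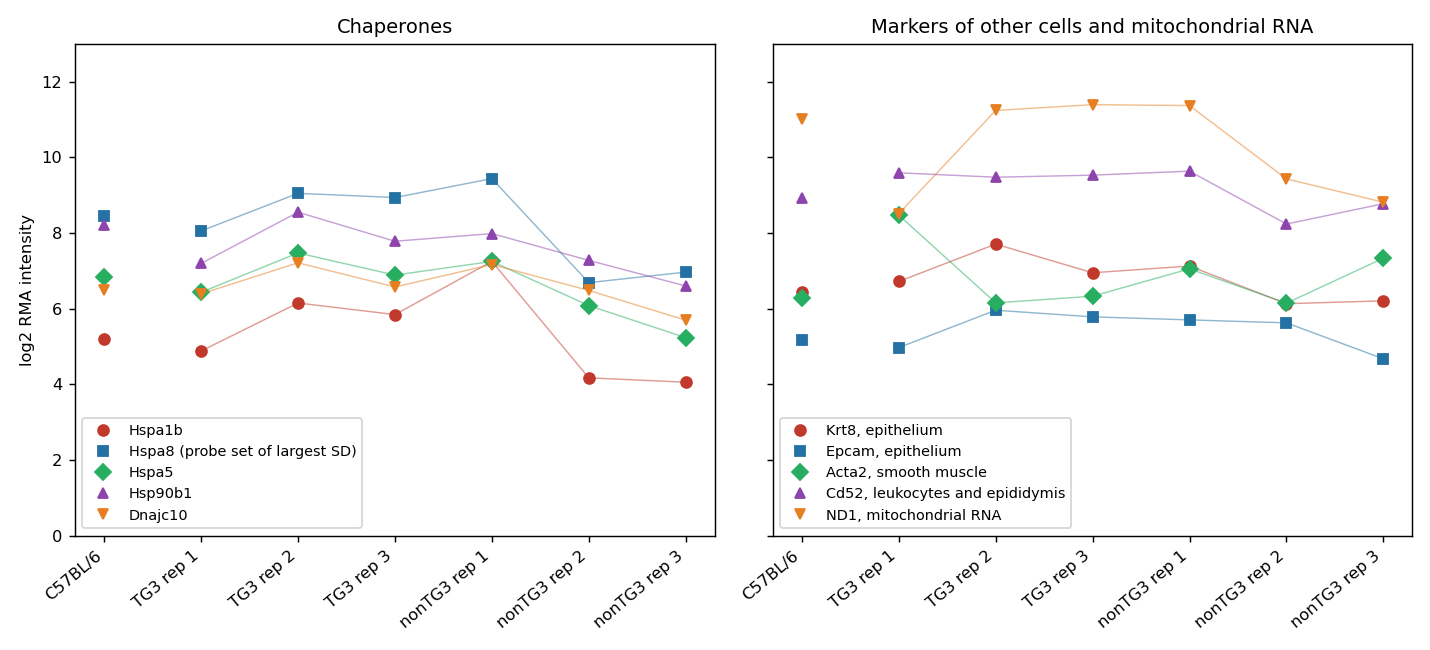
Log2 RMA intensity by array of 5 chaperones of large spread (left) and of markers of other cells and mitochondrial RNA (right); thin lines only join the readings of 1 gene, since replicates have no order. Hspa1b ranges from 4.05 to 7.25 on the line arrays, and TG3 replicate 1 and nonTG3 replicate 3 are low in mitochondrial RNA.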

How the data were processed

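Sperm RNA of 7 pools was amplified and hybridised to Affymetrix expression arrays. The deposited values are log2 intensities that the authors made with RMA, that is, background correction, quantile normalization and a summary per probe set; the submitters' processing notes list R 3.1.0, oligo, RMA and limma. The labels give no build, filter or scan batch. RMA's summary can give exactly equal values on several arrays.

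Of 33604 probe sets, 23493 had 1 gene symbol in the platform annotation and were tested, 1801 had several and 8310 none. Entrez identifiers matched all 76 members to the RefSeq gene table, which changed 0 symbols. limma 3.58.1 (R 4.3.3) fitted 1 mean per group over all 7 arrays, with eBayes moderation (4 residual and 1.65 prior degrees of freedom) and Benjamini-Hochberg adjustment over the 23493. The lone C57BL/6 array is assumed to vary like the others. Precision is limited by the number of arrays.

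Named with values were all testis forms, all members called in the line against C57BL/6, the 5 smallest p in each direction of TG3 against nonTG3, the 3 highest means of each role, the 5 largest SDs over the line, somatic relatives of called testis forms, and called genes of the pathway list. Dnajc18 and Hspa14, outside the rule, were chosen after their values were seen. Members and lists were chosen with earlier results of these data known. Alternatives covered normalization, eBayes settings, array weights, filters, thresholds, each line array left out, fits on fewer groups, and replicate number as block. Figures were drawn with matplotlib 3.10.9.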

Additional observations from a re-analysis of the deposited data

How the results depend on the processing

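The 9 chaperone calls against C57BL/6 rest on 1 control array and few degrees of freedom. At an adjusted p under 0.01 there were 5 calls in the line, 5 in TG3 and 5 in nonTG3 (240 of all 23493 probe sets in the line), and 2 among the other pathway genes in place of 6. Leaving out 1 line array gave 6 to 8 calls in the line, 5 to 7 in TG3 (5 without TG3 replicate 1, nonTG3 replicate 1 or nonTG3 replicate 3), 5 to 7 in nonTG3 (5 without nonTG3 replicate 1 or 3) and 3 to 5 among the pathway genes (3 without TG3 replicate 1), with 3 residual degrees of freedom. Fitting only the groups compared gave 0 calls in TG3 (smallest adjusted p 0.083) and 2 in nonTG3. Without both arrays of lowest mitochondrial RNA there were 0 calls in the line, TG3, nonTG3 and the pathway genes. Same-numbered TG3 and nonTG3 arrays deviated from their group means with correlations of -0.45, 0.02 and -0.40. The highest correlation was 0.55, for TG3 replicate 1 with nonTG3 replicate 3. Such correlations cannot tell whether pools were made or hybridised in pairs. With the replicate number as a block limma called 0 in the line, TG3, nonTG3 and the pathway genes, and 0 of all probe sets. That fit left 2 residual degrees of freedom, and 16 members had an unadjusted p under 0.05 in the line. TG3 against nonTG3 had 0 calls under every alternative run.

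The median difference of the testis forms was -1.28 after a repeated quantile normalization. That of the somatic forms was 0.021 after it, -0.0805 after cyclic loess and -0.13 over members averaging 5 or above (a choice made after seeing the data). Uncalled members near 0 changed sign. After the repeated quantile normalization Dnajc21 was at 0.032, Dnajc3 at 0.12, Dnajc5 at 0.054 and Hspa8 (probe set 17516365) at 0.14. After median centring Dnajb14 was at -0.025, Dnajc14 at -0.020 and Dnajc7 at -0.031. After cyclic loess Dnajb14 was at -0.092, Dnajc10 at -0.026, Dnajc14 at -0.026, Dnajc7 at -0.067 and Hspb9 at -0.14. With array weights Dnaja3 was at -0.019, Dnajc5 at 0.000851 and Dnajc7 at -0.024. Without both arrays of lowest mitochondrial RNA Dnaja3 was at -0.027, Dnajc14 at -0.043, Dnajc5 at 0.014, Dnajc7 at -0.14, Hspa5 at 0.084 and probe sets of Hspa8 at 0.033, 0.089 and 0.063. Over the arrays left out in turn, Dnaja3 ranged from -0.018 to 0.25, Dnajb14 from -0.066 to 0.11, Dnajc10 from -0.087 to 0.28, Dnajc14 from -0.023 to 0.061, Dnajc7 from -0.091 to 0.087, Hspa1b from -0.33 to 0.47, Hspb1 from -0.027 to 0.16, and probe sets of Hspa8 from -0.28 to 0.073 and from -0.69 to 0.0019. The cause of these shifts was not tested.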
